A study of Mus musculus with 6 samples.

Results

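Transcripts of 10 genes for secreted vascular growth factors and their receptors were followed in mesenchymal stromal cells (MSCs): the VEGF family ligands Vegfa, Vegfb, Vegfc and Pgf, the angiopoietins Angpt1 and Angpt2, hepatocyte growth factor (Hgf), and the receptors Flt1, Kdr and Met. The members were taken from the count table by gene symbol, which found all 10 among 23420 listed genes, and 9 of them were abundant enough to be tested. Poly-A RNA was sequenced from 6 libraries of mouse bone marrow MSCs, 3 labelled Ctl MSC and 3 labelled MSC-TPr. The cells came from the femurs of female C57BL/6 mice aged 6 to 8 weeks, were grown in AMEM with FBS and were transduced at passage 5. Ctl MSC received an AP2 retroviral construct that carries eGFP and no proteasome subunit, and MSC-TPr received the same construct coding for the murine subunits β1i (Psmb9), β2i (Psmb10) and β5t (Psmb11), joined by viral linker sequences. Both groups thus carry eGFP and the retroviral backbone, and both are bulk cultures. The sources used here do not say whether the 3 libraries of a group came from separate cultures, so the p-values measure the spread between these libraries, which may be technical.

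VEGF-A is the main growth signal for blood vessel endothelium and acts through the receptor KDR, whereas FLT1 binds VEGF-A, VEGF-B and placental growth factor and can act as a decoy. Angiopoietin-1 activates the receptor TIE2 and stabilises vessels, angiopoietin-2 can block the same receptor, and HGF acts through MET on epithelial and endothelial cells. Marrow stromal cells are known as a source of several of these ligands. The study also assayed VEGF among the proteins in MSC supernatants and reported it as higher for MSC-TPr. That assay raises the question of how the transcripts of the VEGF, angiopoietin and HGF families compare between the 2 groups. Secreted protein and transcript level are unlike measures, so the values below do not test the protein result.

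The libraries held 16158756 to 22158887 reads on genes, so that 3 reads corresponded to 0.139 to 0.181 CPM, the unit used below for the reads of a gene scaled to the size of its library. The libraries numbered 1 stood apart from their groups. The first principal component, with 58.5% of the variance of log2 CPM, placed Ctl MSC 1 (−40.9) beside MSC-TPr 2 and 3 (−50.3 and −49.4), and MSC-TPr 1 (40.5) beside Ctl MSC 2 and 3 (50.8 and 49.2). For each of the 3 transduced genes the ranges of the MSC-TPr and Ctl MSC libraries overlapped. Psmb9 measured 3.38, 0.801 and 0.827 CPM for Ctl MSC 1, 2 and 3, against 0.553, 1.24 and 1.21 CPM for MSC-TPr 1, 2 and 3. Psmb10 measured 27.8, 8.81 and 8.38 CPM for Ctl MSC, against 8.97, 17.3 and 15.2 CPM for MSC-TPr, and Psmb11 stayed between 0.046 and 0.355 CPM. Exons of Psmb9 overlap the opposite-strand gene Tap1 over 212 bp. The libraries numbered 1 thus went against their labels in Psmb9 and Psmb10. Without them Psmb10 was higher in the libraries labelled MSC-TPr (log2 fold change 0.92, adjusted p = 0.00547, edgeR), and Psmb9 did not pass the test (0.59, adjusted p = 0.164). The pair left out is the one that opposed this direction, so these p-values are no test of it. Each direction below is one between libraries so labelled, and the fold change of each member tested is given over all 6 libraries and again over the 4 that remain without the pair numbered 1. That pair was singled out on these same counts, so leaving it out favours genes that follow the first principal component. The p-values over 4 libraries therefore do not stand as independent tests.

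Marker levels also moved across the libraries. The summed level of 16 cell division genes was high in Ctl MSC 1 (1975 CPM) and in MSC-TPr 2 and 3 (1845 and 1938 CPM), and low in Ctl MSC 2 and 3 (209 and 207 CPM) and MSC-TPr 1 (214 CPM). Of 9 MSC markers, 8 passed the filter on low counts, whereas Thy1 had 1 read in Ctl MSC 1 and no read elsewhere. The summed MSC marker level was likewise high in Ctl MSC 1 (8071 CPM) and in MSC-TPr 2 and 3 (7011 and 13924 CPM), and lower in Ctl MSC 2 and 3 (3107 and 3101 CPM) and MSC-TPr 1 (2115 CPM). Col1a1 and Col1a2 made up most of this sum. Cd44 and Ly6a had the same order, but Pdgfra, Pdgfrb, Eng and Nt5e did not. Nt5e measured 11.4, 20.2 and 17.4 CPM for Ctl MSC, against 2.66, 4.20 and 5.24 CPM for MSC-TPr, lower without overlap. Its log2 fold change over 6 libraries was −2.02, with an adjusted p of 0.0790 by edgeR and 2.09e-05 by DESeq2. Of 10 endothelial markers, 7 to 8 had at most 3 reads in a library, with Cldn5, Robo4 and Sox17 at 0, and their sum ranged from 2.54 to 22.8 CPM. Of 10 haematopoietic markers, 7 to 9 had at most 3 reads, with a sum of 1.99 to 14.3 CPM. MSC-TPr 1 had the highest Vwf (21.4 CPM) and Cd68 (14.2 CPM). The part of these markers in the results was not tested, and in bulk RNA fewer cells of a type and less RNA per cell cannot be told apart.

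Promoter sequences of the members were read from RefSeq on GRCm38.p6, as the 250 bases before an annotated start site. RefSeq entries matched 8 of the 10 members, and Angpt1 and Angpt2 had none. Vegfa is shown because its protein was assayed, and Vegfb and Kdr as examples of members that shared an order of libraries given below, a choice made after their values were seen. Capitals mark the core of the hypoxia response element, ACGTG or GCGTG on either strand, which hypoxia-inducible factors (HIF) bind. The windows are chr17:46032378-46032627 on the minus strand for Vegfa (the first of 2 annotated starts), chr19:6987652-6987901 on the minus strand for Vegfb and chr5:75978456-75978705 on the minus strand for Kdr, each printed 5′ to 3′ on the gene's strand.
Vegfa: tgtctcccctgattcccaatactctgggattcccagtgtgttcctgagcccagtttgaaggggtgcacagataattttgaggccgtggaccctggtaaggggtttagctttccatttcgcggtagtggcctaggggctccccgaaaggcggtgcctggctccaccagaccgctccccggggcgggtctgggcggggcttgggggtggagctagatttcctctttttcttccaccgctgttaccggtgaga
Vegfb: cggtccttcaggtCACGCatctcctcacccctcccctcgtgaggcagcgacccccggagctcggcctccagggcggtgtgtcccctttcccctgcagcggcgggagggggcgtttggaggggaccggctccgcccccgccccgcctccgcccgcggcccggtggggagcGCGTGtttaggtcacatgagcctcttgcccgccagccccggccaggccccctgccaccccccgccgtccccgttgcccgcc
Kdr: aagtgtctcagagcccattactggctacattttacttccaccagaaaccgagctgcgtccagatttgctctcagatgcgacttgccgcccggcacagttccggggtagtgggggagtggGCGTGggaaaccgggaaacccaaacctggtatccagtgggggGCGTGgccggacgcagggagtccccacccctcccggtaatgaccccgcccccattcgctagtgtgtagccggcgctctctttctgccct

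The HIF core occurred 0 times in the printed Vegfa window and 2 times in the window of the second Vegfa start, which lies inside the gene and is not printed. It occurred 2 times in Vegfb and 2 times in Kdr. In windows not printed it occurred 0 times in Vegfc and 1 time in Flt1. Pgf and Hgf each held it 1 time at the first of 2 annotated starts and 0 times at the second. The window of Met, at chr6:17463707-17463956 on the plus strand, held it 3 times, a pair of these overlapping in a palindrome that is read on both strands. These cores lie past base 17463800, where GENCODE begins the gene, so they fall inside the gene as annotated there. Among all 32851 RefSeq promoters of this length, 38.6% held the core. The GC box GGGCGG, searched on both strands, occurred 2 times in the printed Vegfa window, 4 times in Vegfb, 2 times in Kdr and 3 times in Met. It occurred 2 times in Vegfc, 3 times in Flt1, 2 and 0 times at the starts of Pgf and 0 times at both starts of Hgf. Among all promoters 32.7% held it. A match describes the letters of the window and not a bound site. Bases further upstream were not searched, so a window without the core does not show that a gene lacks it.

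No member was called different between the libraries labelled MSC-TPr and Ctl MSC over all 6 libraries by edgeR's quasi-likelihood test, where a call required a Benjamini-Hochberg adjusted p below 0.05 together with a log2 difference no smaller than 0.5. Over all 11974 genes tested 51 were called (0.426%), 0.0251% as higher and 0.401% as lower. At an unadjusted p under 0.05 the count was 1 of 9 members (Vegfc), beside 15.0% of all genes, and DESeq2 called 0, beside 5.05% of all genes (1.80% as higher and 3.24% as lower). The adjusted p ranged from 0.332 to 0.968. Of the 9 fold changes 6 were negative and 3 positive, with a median of −0.20 beside 0.01 over all genes. Vegfc was also the 1 member of 9 whose groups did not overlap, against 22.6% of all genes. Over the 4 libraries, 3 of 9 members were called, Angpt1 as higher and Vegfb and Met as lower, beside 40.0% of 12122 genes, and 3 members (Vegfa, Hgf and Kdr) had the opposite sign to that over all 6. The pair left out was singled out on these same counts, so these calls are no independent test.

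**Figure D1:**
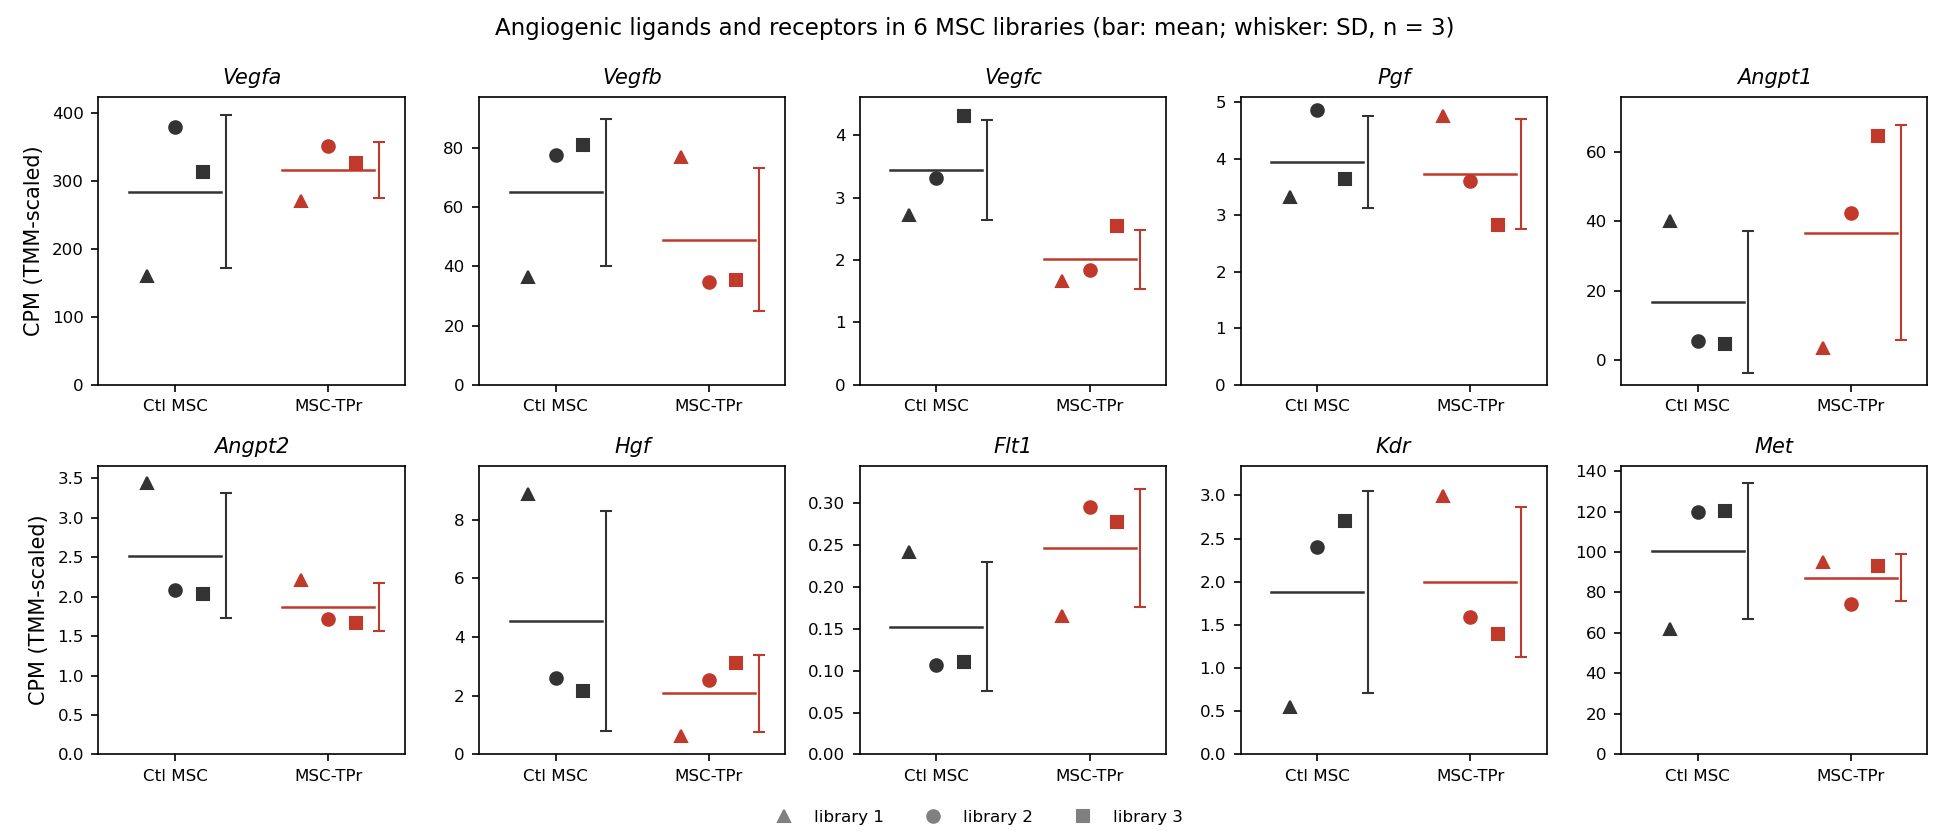
Level of each member in CPM (vertical axis, TMM-scaled, a separate linear scale per gene) in the libraries labelled Ctl MSC and MSC-TPr, with a point per library, a bar at the mean and a whisker of 1 SD (n = 3). The groups overlapped for every member but Vegfc, and the libraries numbered 1 (triangles) were the lowest or the highest of their group for every member, as for Angpt1 at 40.1 CPM for Ctl MSC 1 and 3.38 CPM for MSC-TPr 1.

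Vegfa, the principal endothelial growth factor (chr17:46016993-46032369, minus strand), measured 159.7, 379.6 and 314 CPM for Ctl MSC 1, 2 and 3, against 272, 351 and 326 CPM for MSC-TPr 1, 2 and 3. Ctl MSC 1 was the lowest library and Ctl MSC 2 the highest, and the MSC-TPr libraries lay between them. The means of 284 ± 113 and 317 ± 40.8 CPM (SD, n = 3) gave a log2 fold change of 0.15 with a standard error (SE) of 0.322 and an adjusted p of 0.860 (edgeR). Without the libraries numbered 1 the log2 fold change was −0.03 with an SE of 0.139 and an adjusted p of 0.871. Leaving out Ctl MSC 1 alone also turned the sign, to −0.13. The difference between the groups was smaller than the spread between libraries in both fits.

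Vegfb, a FLT1 ligand with a role in fatty acid handling and cell survival (chr19:6982473-6987651, minus strand), measured 36.3, 77.4 and 81.1 CPM for Ctl MSC, against 77.0, 34.9 and 35.3 CPM for MSC-TPr. The values fell at 2 levels, and the library numbered 1 in each group was at the level of the other group's libraries 2 and 3. Over all 6 libraries the log2 fold change was −0.41 (SE 0.431, adjusted p = 0.710, edgeR), with means of 65.0 ± 24.9 and 49.0 ± 24.2 CPM (SD, n = 3). Over the 4 libraries Vegfb was lower in those labelled MSC-TPr, at 35.1 CPM against 79.3 CPM, with a log2 fold change of −1.17 (SE 0.112, adjusted p = 0.000827).

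Vegfc, the lymphatic growth factor that binds FLT4 and KDR (chr8:54077606-54187096, plus strand), was the member whose groups separated. It measured 2.72, 3.31 and 4.30 CPM in Ctl MSC, from 45, 62 and 78 reads, and 1.66, 1.83 and 2.55 CPM in MSC-TPr, from 30, 31 and 55 reads. Every library labelled MSC-TPr was below every library labelled Ctl MSC, with MSC-TPr 3 closest to Ctl MSC 1. By edgeR the log2 fold change was −0.77 (SE 0.321) with an adjusted p of 0.332, from means of 3.44 ± 0.800 and 2.01 ± 0.472 CPM (SD, n = 3). It was of the same size over the 4 libraries, at −0.78 (SE 0.276, adjusted p = 0.0616), and did not pass the threshold there. Among all genes 12.0% were likewise lower without overlap.

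Pgf, placental growth factor, a FLT1 ligand (chr12:85166635-85177790, minus strand), measured 3.32, 4.86 and 3.64 CPM for Ctl MSC, against 4.76, 3.61 and 2.83 CPM for MSC-TPr. The groups overlapped over nearly their whole range. Its log2 fold change was −0.08 (SE 0.307, adjusted p = 0.925, edgeR) over 6 libraries and −0.41 (SE 0.254, adjusted p = 0.231) over 4, and its sign turned without Ctl MSC 2 (0.10) or without MSC-TPr 3 (0.09).

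**Figure D2:**
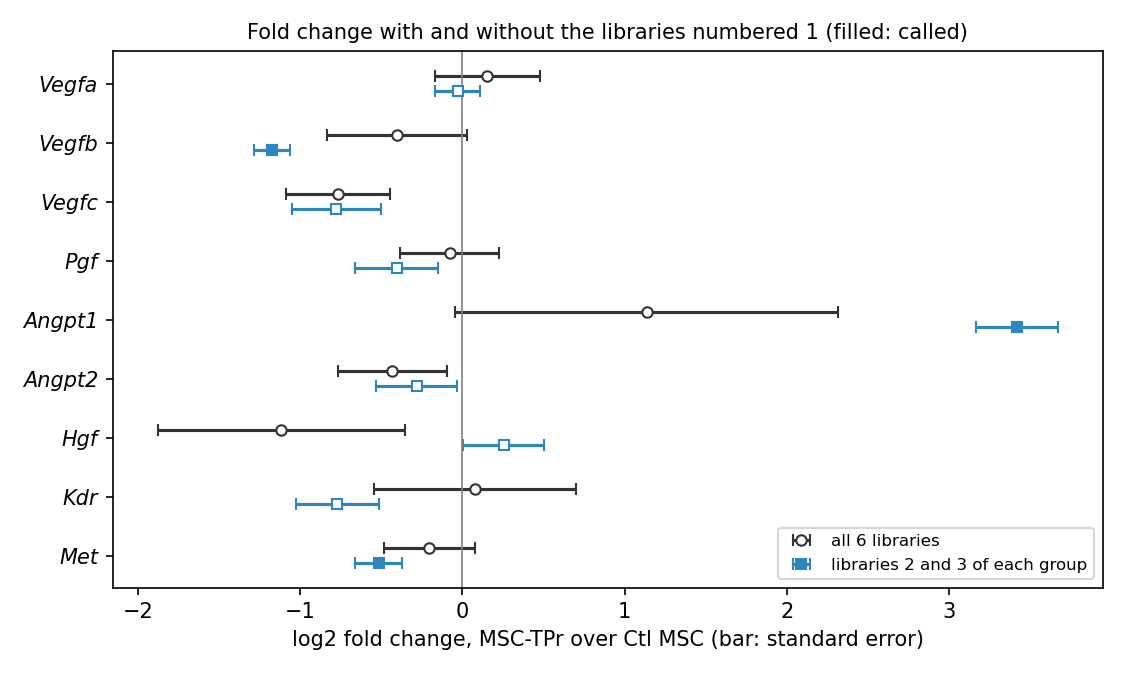
Log2 fold change of MSC-TPr against Ctl MSC (horizontal axis) for the 9 members tested by edgeR, over all 6 libraries and over the 4 libraries without the pair numbered 1, with bars of 1 SE. The 6-library bars of Angpt1 (1.14, SE 1.18) and Hgf (−1.12, SE 0.763) were the widest, and Angpt1 moved furthest between the fits, to 3.41.

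Angpt1, the activating TIE2 ligand (chr15:42424723-42676977, minus strand), had the largest ratio of highest to lowest library among the members. It measured 40.1, 5.44 and 4.58 CPM for Ctl MSC, against 3.38, 42.2 and 64.4 CPM for MSC-TPr. Ctl MSC 1 and MSC-TPr 2 and 3 were high, and the other 3 libraries were low, so the groups overlapped. Over all 6 libraries the log2 fold change was 1.14 (SE 1.18, adjusted p = 0.704, edgeR), from means of 16.7 ± 20.3 and 36.7 ± 30.9 CPM (SD, n = 3). Over the 4 libraries Angpt1 rose from 5.01 to 53.3 CPM, a log2 fold change of 3.41 (SE 0.252, adjusted p = 0.000352), whereas between the libraries numbered 1 the log2 ratio of MSC-TPr to Ctl MSC was −3.57. The 3 libraries with high Angpt1 were those with the high sums of cell division genes and of MSC markers (mostly Col1a1 and Col1a2), whose part was not tested. Exons of Angpt1 overlap an opposite-strand gene over 737 bp, and the use of strand in counting is not given in the sources used here.

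Angpt2, the ligand that can oppose Angpt1 at TIE2 (chr8:18690263-18741562, minus strand), measured 3.44, 2.08 and 2.04 CPM for Ctl MSC, against 2.21, 1.71 and 1.67 CPM for MSC-TPr. Ctl MSC 1 was the highest library, and MSC-TPr 1 was above Ctl MSC 2 and 3. The log2 fold change was −0.43 (SE 0.336, adjusted p = 0.596, edgeR) over 6 libraries and −0.28 (SE 0.248, adjusted p = 0.384) over 4. Per kb of annotated exon, Angpt1 exceeded Angpt2 8.27-fold, 1.85-fold and 1.59-fold in Ctl MSC and 1.08-fold, 17.5-fold and 27.4-fold in MSC-TPr. The balance thus favoured Angpt1 in every library, narrowly in MSC-TPr 1. The log2 ratio of Angpt2 to Angpt1 averaged −1.54 ± 1.31 in Ctl MSC and −3.00 ± 2.53 in MSC-TPr (SD, n = 3), a difference of −1.47 (two-sided exact permutation test, p = 0.4, with 0.1 the smallest p that 20 assignments allow). This difference was −3.67 without the pair numbered 1, and with single libraries left out it ranged from −2.91 (without MSC-TPr 1) to −0.58 (without MSC-TPr 3).

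**Figure D3:**
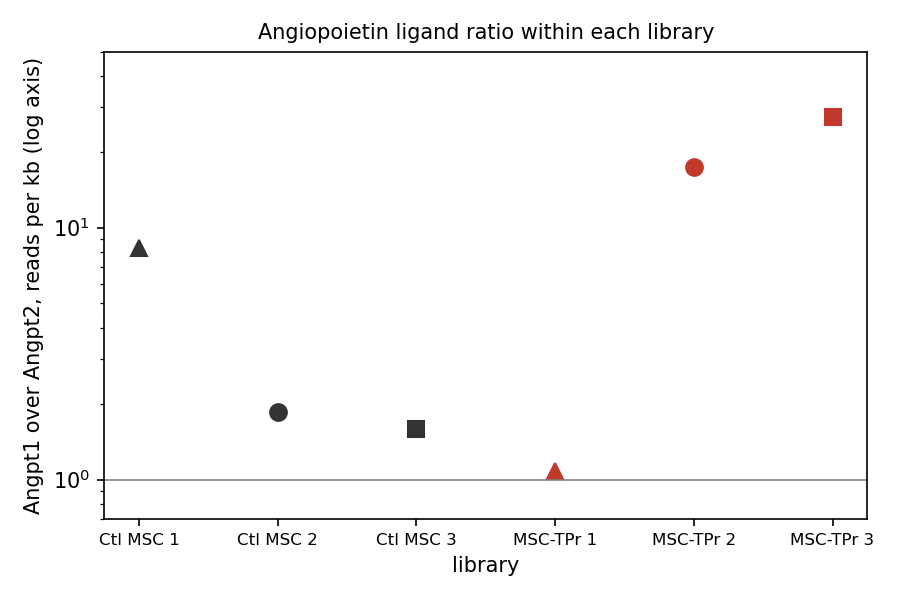
Ratio of Angpt1 to Angpt2, each per kb of exon (vertical axis, log scale), in each library labelled Ctl MSC and MSC-TPr. Ratios ranged from 1.08 in MSC-TPr 1 to 27.4 in MSC-TPr 3, with Ctl MSC 1 (8.27) above Ctl MSC 2 and 3 (1.85 and 1.59).

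Hgf, the MET ligand (chr5:16553495-16620152, plus strand), measured 8.87, 2.62 and 2.15 CPM for Ctl MSC, against 0.609, 2.54 and 3.11 CPM for MSC-TPr. The libraries numbered 1 held both extremes, and the other 4 libraries lay close together. Over all 6 libraries, the log2 fold change was −1.12 (SE 0.763, adjusted p = 0.540, edgeR), from means of 4.55 ± 3.76 and 2.09 ± 1.31 CPM (SD, n = 3). It was 0.25 (SE 0.252, adjusted p = 0.442) over the 4 libraries, so that its direction rested on the libraries numbered 1. Hgf shares 484 bp of exon with another annotated gene on the same strand, and reads there could be assigned to either.

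Met, the HGF receptor (chr6:17463800-17573980, plus strand), was the most abundant of the 3 member receptors. It measured 61.9, 119.8 and 120.2 CPM for Ctl MSC, against 94.8, 74.1 and 93.2 CPM for MSC-TPr. Ctl MSC 1 was below the MSC-TPr libraries, and Ctl MSC 2 and 3 were above them. The log2 fold change was −0.20 (SE 0.281, adjusted p = 0.785, edgeR) over 6 libraries, with means of 101 ± 33.5 and 87.4 ± 11.6 CPM (SD, n = 3). Met was lower, over the 4 libraries, in those labelled MSC-TPr, with a log2 fold change of −0.52 (SE 0.142, adjusted p = 0.0287), close to the threshold of 0.5.

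Kdr, the main signalling receptor for VEGF-A (chr5:75932827-75978458, minus strand), was at a low level throughout. It measured 0.543, 2.40 and 2.70 CPM for Ctl MSC, against 2.99, 1.60 and 1.39 CPM for MSC-TPr, with the libraries numbered 1 again at both extremes. Its log2 fold change was 0.08 (SE 0.624, adjusted p = 0.968, edgeR) over 6 libraries and −0.77 (SE 0.256, adjusted p = 0.0503) over 4. Its sign also turned without Ctl MSC 1 alone (−0.36) or MSC-TPr 1 alone (−0.34).

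Flt1, the other VEGF-A receptor (chr5:147561604-147726011, minus strand), was near the limit of detection and was not tested in the fit across genes. It had 4, 2 and 2 reads in Ctl MSC and 3, 5 and 6 reads in MSC-TPr, or 0.241, 0.107 and 0.110 CPM against 0.166, 0.296 and 0.278 CPM. MSC-TPr 2 and 3 were above every Ctl MSC library and MSC-TPr 1 was below Ctl MSC 1, so the groups overlapped, and Ctl MSC 2 and 3 were below the level of 3 reads. The difference of 0.0938 CPM could not be told from the spread (two-sided exact permutation test, p = 0.2, with 0.1 the smallest possible). A difference in Flt1 was not detectable at this depth.

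Vegfb, Pgf, Kdr and Met shared an order of libraries, each being higher in Ctl MSC 2 and 3 and MSC-TPr 1 than in Ctl MSC 1 and MSC-TPr 2 and 3. The margin was small for Met, between MSC-TPr 1 (94.8 CPM) and MSC-TPr 3 (93.2 CPM), and for Pgf, between Ctl MSC 3 (3.64 CPM) and MSC-TPr 2 (3.61 CPM). Angpt1 had the reverse order, low in the former 3 libraries and high in the latter, as did Flt1 at 2 to 6 reads. The sums of the 16 cell division genes and of the MSC markers, the latter mostly Col1a1 and Col1a2, were high in the same 3 libraries as Angpt1. The order is that of the first principal component. This is a description over 6 libraries, which may not come from separate cultures, and it was noted after the values were seen.

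**Figure D4:**
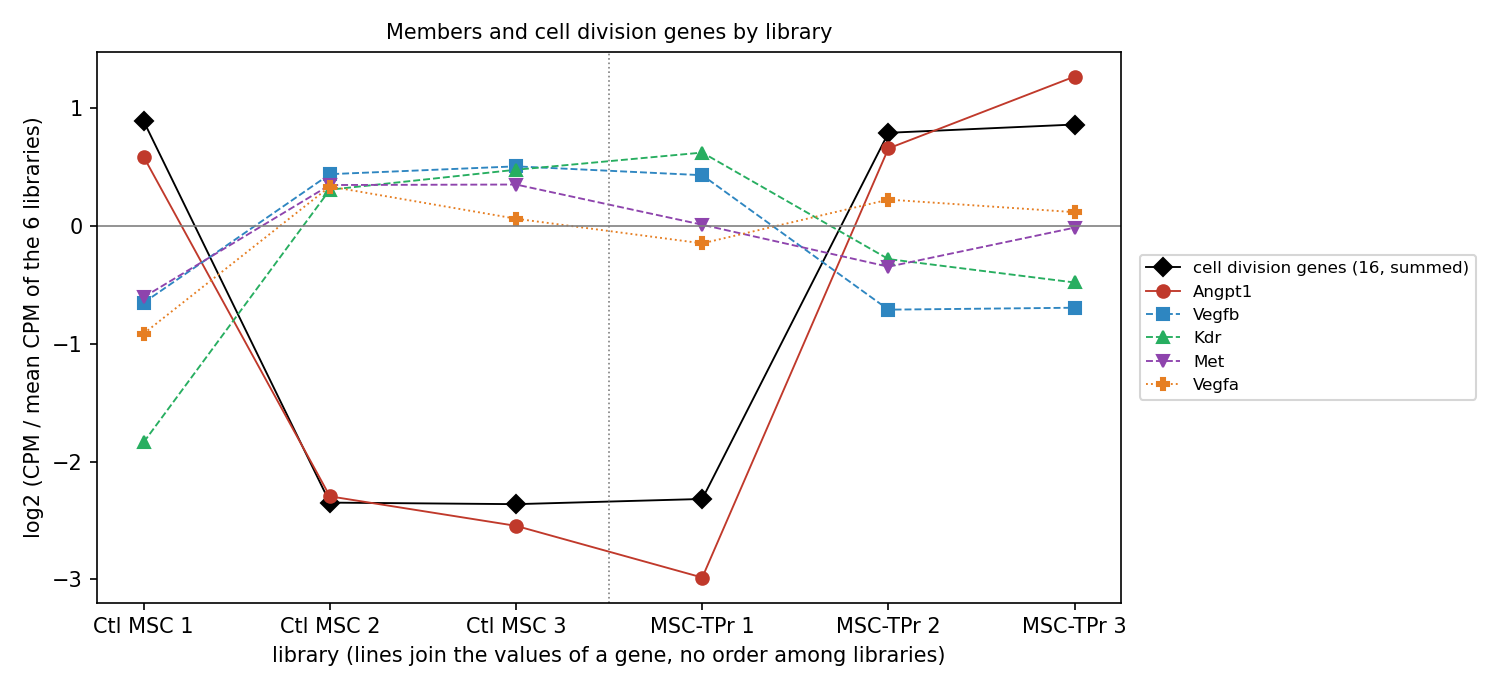
Log2 of the CPM over its mean in the 6 libraries (vertical axis) for 5 members and for the sum of 16 cell division genes, by library (horizontal axis). Angpt1 and the cell division genes were low in Ctl MSC 2 and 3 and MSC-TPr 1 (for Angpt1 −2.29, −2.54 and −2.98), where Vegfb stood at 0.44, 0.51 and 0.43.

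Set per kb of exon, which allows levels to be compared between genes, Vegfa led with a mean of 70.1 CPM per kb (range 37.3 to 88.6), followed by Vegfb at 35.5 (21.7 to 50.5), Met at 12.2 (8.07 to 15.7) and Angpt1 at 5.13 (0.649 to 12.4). Pgf at 1.32, Vegfc at 1.11, Angpt2 at 0.594, Hgf at 0.461 and Kdr at 0.215 CPM per kb came next, and Flt1 was lowest at 0.0148 CPM per kb. The ranges of neighbours overlapped except between Vegfb and Met and between Kdr and Flt1. Within each library Vegfa was above Vegfb in 6 of 6 and Vegfc above Angpt2 in 6 of 6, but Angpt1 was above Pgf in 3 of 6. The ligands Vegfa and Vegfb were thus abundant in these cells, while the receptors KDR and FLT1 for the same ligands were represented by few transcripts.

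Of 57 other genes in 7 lists around these pathways, 41 were tested and 0 were called by edgeR over 6 libraries (background 0.426%), 5 had an unadjusted p under 0.05 (background 15.0%) and DESeq2 called 1, Egln3 (background 5.05%). Over the 4 libraries 42 were tested, of which 15 were called higher and 8 lower, beside 20.6% and 19.4% of all genes. The list medians over 6 libraries were −0.25 for VEGF co-receptors and relatives (4 of 5 tested), 0.25 for the angiopoietin and Tie axis (2 of 5), 0.23 for angiopoietin-like proteins (3 of 6), −0.04 for HGF activation and MET signalling (4 of 11), −0.17 for angiogenesis inhibitors (6 of 7), 0.03 for HIF factors and oxygen sensors (7 of 8) and 0.03 for hypoxia targets (15 of 15). The median over all genes was 0.01. Without the pair numbered 1 the medians of the genes tested were, in that order, 0.41, −0.70, 1.499, −0.06, 0.14, 0.0024 and 0.09, so that 3 of the 7 turned sign. For the angiopoietin and Tie axis the genes differed, as Ptprb (−3.23) was tested only without the pair, and Angpt4 and Svep1 kept their signs. The median of the angiopoietin-like proteins went to −0.86 over 6 libraries without the filter on low counts, where Angptl7 was added.

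Among the receptors, the neuropilins, co-receptors for VEGF ligands, were well expressed. Nrp1 measured 67.9, 58.4 and 59.4 CPM for Ctl MSC, against 65.3, 71.6 and 74.1 CPM for MSC-TPr, with a log2 fold change of 0.18 (adjusted p = 0.587, edgeR) over 6 and 0.31 (adjusted p = 0.0597) over 4 libraries. Nrp2 measured 249, 308 and 289 CPM for Ctl MSC, against 179, 178 and 292 CPM for MSC-TPr (log2 fold change −0.39, adjusted p = 0.501, over 6 and −0.35, adjusted p = 0.264, over 4). In contrast, Flt4, the VEGF-C receptor, had 4, 4 and 4 reads in Ctl MSC and 0, 0 and 2 in MSC-TPr. Its groups did not overlap, but it was under the filter on low counts, and without that filter edgeR gave an unadjusted p of 0.0418 and an adjusted p of 0.374. Tek, which codes for TIE2, had 1, 5 and 3 reads and 6, 3 and 3 reads, and Tie1 had none, so differences in Tek and Tie1 were not detectable at this depth.

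The paralogs of the members were named after their values were seen. Vegfd, listed as Figf and a relative of Vegfc, measured 75.3, 12.3 and 13.6 CPM for Ctl MSC, against 3.49, 27.3 and 37.9 CPM for MSC-TPr. Its log2 fold change was −0.56 (adjusted p = 0.836, edgeR) over 6 libraries and 1.33 (adjusted p = 0.00324) over 4. Angpt4, a further TIE2 ligand, measured 4.23, 0.747 and 0.992 CPM for Ctl MSC, against 2.77, 5.79 and 7.23 CPM for MSC-TPr (log2 fold change 1.41, adjusted p = 0.424, over 6 and 2.90, adjusted p = 0.000810, over 4). Svep1, a large extracellular matrix protein, was lower without overlap in MSC-TPr, at 39.0, 47.4 and 98.5 CPM against 107, 122 and 117 CPM, with a log2 fold change of −0.90 (adjusted p = 0.305, edgeR). It was −0.70 (adjusted p = 0.116) over the 4 libraries and −1.41 without MSC-TPr 3, and its exons overlap an opposite-strand gene over 2244 bp.

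In the remaining lists the most abundant gene of each is given. Angptl2, a secreted angiopoietin-like protein, measured 339, 124 and 133 CPM for Ctl MSC, against 197, 359 and 531 CPM for MSC-TPr, with a log2 fold change of 0.87 (adjusted p = 0.482, edgeR) over 6 and 1.795 (adjusted p = 0.00148) over 4 libraries. Thbs2, a thrombospondin that inhibits vessel growth, measured 2719, 1716 and 1705 CPM for Ctl MSC, against 835, 3284 and 5035 CPM for MSC-TPr (0.58, adjusted p = 0.705, over 6 and 1.28, adjusted p = 0.00579, over 4). Grb2, an adaptor of MET signalling, stayed between 84.4 and 105 CPM.

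Hypoxia drives Vegfa transcription through HIF, whose stability is set by prolyl hydroxylases, and 2 lists covered that pathway. Without the libraries numbered 1, 3 of 7 HIF factors and sensors were called higher and 0 lower, and 4 of 15 hypoxia targets higher and 4 lower, beside 20.6% and 19.4% of all genes. Of these, 3 genes (Egln3, Egln1 and Bnip3) also did not overlap between groups over all 6. Egln3, a prolyl hydroxylase that is itself induced by HIF, measured 5.86, 5.50 and 5.95 CPM for Ctl MSC, against 13.1, 12.5 and 16.3 CPM for MSC-TPr. All 3 libraries labelled MSC-TPr, including library 1, were above all 3 labelled Ctl MSC. The log2 fold change was 1.27 (SE 0.205, adjusted p = 0.0739, edgeR) over 6 libraries, short of the threshold, 1.33 (adjusted p = 0.00349) over 4, and 1.29 by DESeq2 over 6 (adjusted p = 1.03e-05).

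Egln1, the main HIF prolyl hydroxylase, measured 73.3, 58.8 and 59.5 CPM for Ctl MSC, against 92.4, 78.9 and 106 CPM for MSC-TPr, with a log2 fold change of 0.53 (adjusted p = 0.244, edgeR). Bnip3, a mitophagy receptor and HIF target, measured 58.4, 47.7 and 50.4 CPM against 77.3, 62.6 and 95.9 CPM (0.59, adjusted p = 0.247), and its exons overlap an opposite-strand gene over 504 bp. Over the 4 libraries Egln1 (0.65, adjusted p = 0.0217) and Bnip3 (0.70, adjusted p = 0.0375) passed the threshold. Both were named because of these calls, which are no independent test. Pfkfb3, an activator of glycolysis, was higher without overlap at 0.46 over 6 libraries (adjusted p = 0.342) and 0.498 over 4 (adjusted p = 0.0204), and Arnt, the partner of HIF-α, was lower without overlap at −0.19 over 6 (adjusted p = 0.550) and −0.13 over 4 (adjusted p = 0.364), both chosen after their values were seen. Targets that went the other way, also chosen after their values were seen, included Car9, a carbonic anhydrase, at −1.25 over 6 libraries (adjusted p = 0.482, edgeR) and −2.21 over 4 (adjusted p = 0.0177), from 3 to 35 reads a library. Adm, the vasodilator adrenomedullin, stood at −1.35 over 6 (adjusted p = 0.385) and −0.21 over 4 libraries (adjusted p = 0.590). Of the 7 HIF factors and sensors and 15 hypoxia targets tested, 4 were higher and 1 lower without overlap, beside 10.6% and 12.0% of all genes, while Vegfa overlapped between groups.

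**Figure D5:**
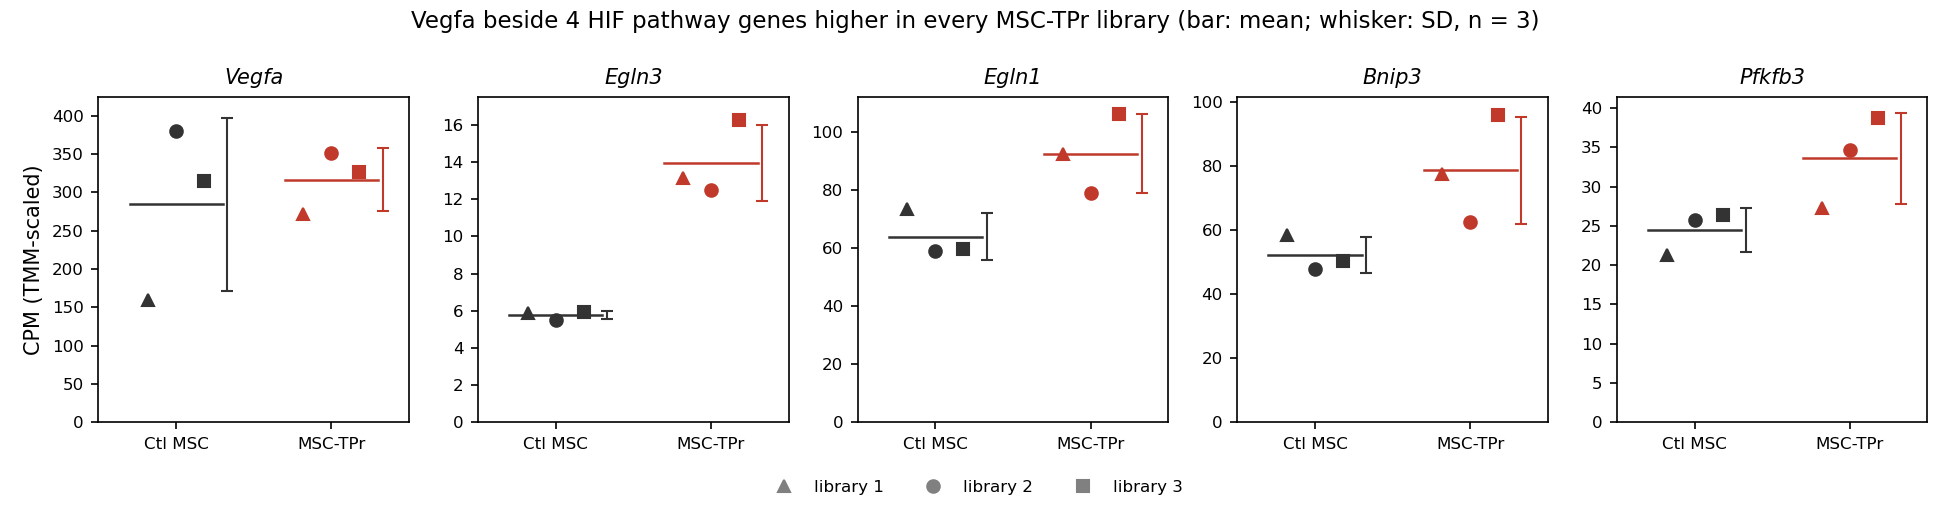
Level in CPM (vertical axis, linear, a separate scale per gene) of Vegfa, Egln3, Egln1, Bnip3 and Pfkfb3 in the libraries labelled Ctl MSC and MSC-TPr, with a point per library, a bar at the mean and a whisker of 1 SD (n = 3). Egln3 stood at 5.50 to 5.95 CPM for Ctl MSC and at 12.5 to 16.3 CPM for MSC-TPr, whereas the groups overlapped for Vegfa. The genes beside Vegfa were picked as those higher without overlap among the 7 HIF factors and sensors and 15 hypoxia targets tested. Of the genes not shown, Arnt was lower without overlap and the rest overlapped. The median log2 fold change over 6 libraries was 0.03 in each list.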

How the data were processed

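Poly-A RNA of 6 libraries was sequenced with a stranded kit. Per the labels, reads were processed with CASAVA 1.8.2, Trimmomatic 0.35 and TopHat2 2.1.0, and the authors deposited raw read counts per gene made on mm10 with HTSeq-count. The annotation and the use of strand in counting are not given in the sources used here. Rows that name no gene held 13.8% to 20.8% of the listed reads and were left out. From the counts, edgeR 4.0.16 (filterByExpr, TMM, quasi-likelihood test, Benjamini-Hochberg over all genes tested, R 4.3.3) compared 3 MSC-TPr with 3 Ctl MSC libraries, and a gene was called where the adjusted p was below 0.05 and the log2 difference reached 0.5 up or down. SE is the fold change over the root of F. CPM are TMM-scaled. Exact permutation tests compared group means over every assignment of libraries to the groups, in Python 3.11.15. Gene coordinates and exon lengths are from GENCODE M21 (GRCm38, the build of mm10). The test was also run on counts simulated with 200 genes changed 4-fold and every library following its label. That setting differs from these data, so it does not bear on the libraries numbered 1.

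Members, lists and tests were chosen with earlier results of these data known. Named were all members, the transduced genes, list genes called over 6 or 4 libraries without overlap, otherwise the most abundant gene of a list, and the receptors Nrp1, Nrp2, Flt4 and Tek. Alternatives were DESeq2 1.42.0, other normalizations, filters, a replicate block and libraries left out. DESeq2 over the 4 libraries was added after seeing the data. The lowest chi-square per gene between libraries of a group was 4.76, for Ctl MSC 2 and 3, and the other pairs within groups had 50.0 to 191. No pair within a group was thus the same library sequenced again, and pairs across groups were not checked. The check cannot tell separate cultures from technical replicates of a single culture, so for the close pair Ctl MSC 2 and 3 this stays unknown. With the pair numbered 1 removed, edgeR's common dispersion (its estimate of within-group spread) was 0.0168, against 0.124 with every library kept. The smaller p-values of that fit rest on this low spread, which may be technical.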

Additional observations from a re-analysis of the deposited data

How the results depend on the processing

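The number of libraries per group and the libraries numbered 1 limit these results. Over all genes 51 were called, against 31 with at least 10 counts in every library, 669 by DESeq2, 4854 without the libraries numbered 1, 4565 by DESeq2 without them, and 0 to 108 when a single library was left out (0 without Ctl MSC 2, Ctl MSC 3 or MSC-TPr 3, 1 without MSC-TPr 2, 108 without Ctl MSC 1). The replicate block gave 0 calls and changed no call of a member or list gene. Libraries with the same number correlated in their deviations from the group mean at −0.76, −0.59 and −0.60, and no library deviated most like its own number. Deviations from a mean of 3 libraries depend on each other, so the pair numbered 1 weighs on all of these values. They cannot show whether the numbers pair libraries 2 and 3. Of the members 0 were called, against 3 without the libraries numbered 1 (3 by DESeq2), and of the list genes 0, against 1 by DESeq2 and 23 without those libraries (25 by DESeq2).

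Directions turned as follows on the log2 scale, without the libraries numbered 1 and by DESeq2 without them. Vegfa went to −0.03 and −0.026, Hgf to 0.25 and 0.25, Kdr to −0.77 and −0.77, Psmb9 to 0.59 and 0.59, Psmb10 to 0.92 and 0.93, Vegfd to 1.33 and 1.34, and Plau to 2.66 and 2.66. With the replicate block Psmb10 went to 0.11 and Plau to 1.09. With single libraries left out, Vegfa ranged from −0.13 to 0.42, Pgf from −0.29 to 0.10 (−0.41 without both libraries numbered 1), Hgf from −1.52 to −0.19, Kdr from −0.36 to 0.42, Psmb9 from −1.06 to 0.30, Psmb10 from −0.40 to 0.69, Vegfd from −1.12 to 0.82 and Plau from −0.56 to 2.11. The cause was not tested. Of 404 fold changes of single genes under the alternatives, 350 kept their direction and their side of the threshold, 27 kept their direction and newly passed it, and 27 turned sign, 6 of these also passing. Of the 33 that passed, that of Egln3 by DESeq2 was over all 6 libraries and the rest left out the libraries numbered 1. Of 98 list medians under the alternatives 27 turned sign, and 23 moved by more than the spread between libraries.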

Other observations

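Further genes of the lists were chosen after their values were seen. Plau, the protease urokinase, which can activate pro-HGF, measured 87.1, 7.21 and 7.66 CPM for Ctl MSC 1, 2 and 3, against 2.55, 45.8 and 47.8 CPM for MSC-TPr 1, 2 and 3. The fit gave it a log2 fold change of −0.08 (adjusted p = 0.984, edgeR) over 6 libraries and 2.66 (adjusted p = 0.000115) over the 4 without the libraries numbered 1. Hif1a, the oxygen-regulated subunit of HIF-1, measured 337, 158.8 and 164 CPM for Ctl MSC, against 224, 403 and 456 CPM for MSC-TPr, with log2 fold changes of 0.72 (adjusted p = 0.448, edgeR) over 6 and 1.42 (adjusted p = 0.000635) over 4 libraries, and its exons overlap other annotated genes over 330 and 148 bp. Angptl6, an angiopoietin-like growth factor, measured 7.24, 40.8 and 38.1 CPM for Ctl MSC, against 12.9, 5.56 and 3.48 CPM for MSC-TPr, with log2 fold changes of −1.97 (adjusted p = 0.293, edgeR) and −3.14 (adjusted p = 0.000330), and its exons overlap an opposite-strand gene over 265 bp. For all 3 genes the groups overlapped over 6 libraries.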
